A study of Mus musculus with 48 samples.

Results

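Cells of the brain that are not tumor leave their own RNA in a tumor sample, and 33 genes of 34591 in the count tables were followed here as markers of such cells. The genes were taken by symbol, as fixed by a list, and comprised 6 markers of oligodendrocytes, 7 of astrocytes, 7 of vessel endothelium, 7 of mural cells (the pericytes and smooth muscle cells around vessels) and 6 of cortical neurons. All 33 were found in every count table, 29 were detected in every library, and 4 (Mog, Cldn11, Gad2 and Neurod6) had a count of 0 in at least 1 library. Each level below is in CPM, the counts of a gene scaled to the total on genes of that library.

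Oligodendrocytes wrap axons in myelin, astrocytes clear transmitters and line vessels with their end feet, and endothelium and mural cells build the vessels that feed the brain and any tumor in it. Markers of these cells are read as classes, because genes used by a single cell type go up and down together when samples hold more or less of that cell. Most such genes are not private to the cell they mark: neural progenitors share several astrocyte genes, and granule neurons of the cerebellum share genes with cortical neurons.

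The study compared Myc-driven mouse tumors of a Group 3 medulloblastoma model, medulloblastoma being a childhood tumor of the cerebellum. All groups over-expressed Myc. Tumorsphere cells, which grow as floating clusters, were infected with retroviral vectors, sorted for the red and green reporters, grown on, and placed with Matrigel into the cerebral cortex of CD-1 nu/nu mice, which lack T cells but keep their own brain cells and vessels. The sort came before the transplant, and RNA was drawn from pieces of tumor or from tumorsphere cells. The title or the source names a tumor for each of the 48 libraries.

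Set 1 held the p53-/-;p18-/- lines 19251, 19554 and 19568, with Cas9 control and labelled Ezh2 KO tumors in 3 libraries each per line. Set 2 held line 19568 of the same genotype with 3 libraries each of Cas9 control, Ezh2 KO, Ezh2 OE, and Ezh2 KO with Ezh2 OE, called the rescue below. Line 19251, again p53-/-;p18-/-, also gave 6 libraries labelled control and 8 labelled Gfi1 OE, in which a vector over-expresses Gfi1. The last 4 libraries are titled WT GNP Myc Gfi1, with the genotype WT, granule neuron precursors as their source and Gfi1 OE as their modification. The labels give no animal ages and do not say that replicates come from separate animals, so that p-values measure the spread between these libraries only.

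The total count on genes was lowest at 2687641, highest at 94733334 and 29400000 in the median library, and the lowest belonged to Gfi1 OE replicate 5, where 71.6% of reads were unaligned. Gfi1 stood at 225 ± 157 CPM (SD, n = 8) in Gfi1 OE and at 0.471 ± 0.254 CPM (n = 4) in those labelled WT GNP Myc Gfi1, which therefore go against their label. Ezh2 spanned 32.8 to 88.2 CPM in set 1 Cas9 and 38 to 79.1 CPM in set 1 Ezh2 KO. The arms overlapped in lines 19251 and 19554, also without that lowest Cas9 library, but not in line 19568, with 68, 72.1 and 83.4 CPM in Cas9 and 44.3, 38 and 48.7 CPM in Ezh2 KO. In set 2, Ezh2 stood at 5128 CPM in the library titled Cas9 replicate 1 and at 101 CPM in the library titled rescue replicate 3, and each carries a number in its title that contradicts its file. Rescue replicates 1 and 2 held 5037 and 6576 CPM of Ezh2 and Cas9 replicates 2 and 3 held 91.9 and 93.5 CPM. Each doubtful library was thus near the group that its title does not name, and both were left out of the set 2 tests. Cas9 replicate 1 of line 19251 held 9.91 CPM of Myc, and its 8 cell cycle genes summed to 9.38 CPM against 752 to 3277 CPM in the other libraries, so results that rest on it are given with and without it.

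Summed over each class, the markers covered very different ranges. Oligodendrocyte markers ran from 8.96 CPM in Ezh2 KO replicate 1 of line 19554 to 1231 CPM in Cas9 replicate 2 of line 19568 in set 1, with a median of 129 CPM. Cortical neuron markers ran from 1.05 CPM in Ezh2 KO replicate 1 of set 2 to 4927 CPM in Cas9 replicate 1 of line 19251, and the next library held 596 CPM. In both classes single libraries stood far from the others of their own group.

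Vessel markers moved less. The endothelial sum ran from 37.9 CPM in control replicate 4 of line 19251 to 167 CPM in Cas9 replicate 1 of that line (median 78.8 CPM), and no library was without it. Mural markers ran from 38.7 CPM in Gfi1 OE replicate 5 to 729 CPM in control replicate 4 (median 141 CPM). Astrocyte markers ran from 139.5 CPM in Gfi1 OE replicate 5 to 3515 CPM in Cas9 replicate 1 of line 19251, and without that library the highest sum was 1478 CPM. Of the 33 genes, 11 had their highest level in Cas9 replicate 1 of line 19251 and 4 had it in Cas9 replicate 2 of line 19568. In bulk samples, fewer cells of a type and less RNA per cell cannot be told apart.

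**Figure D1:**
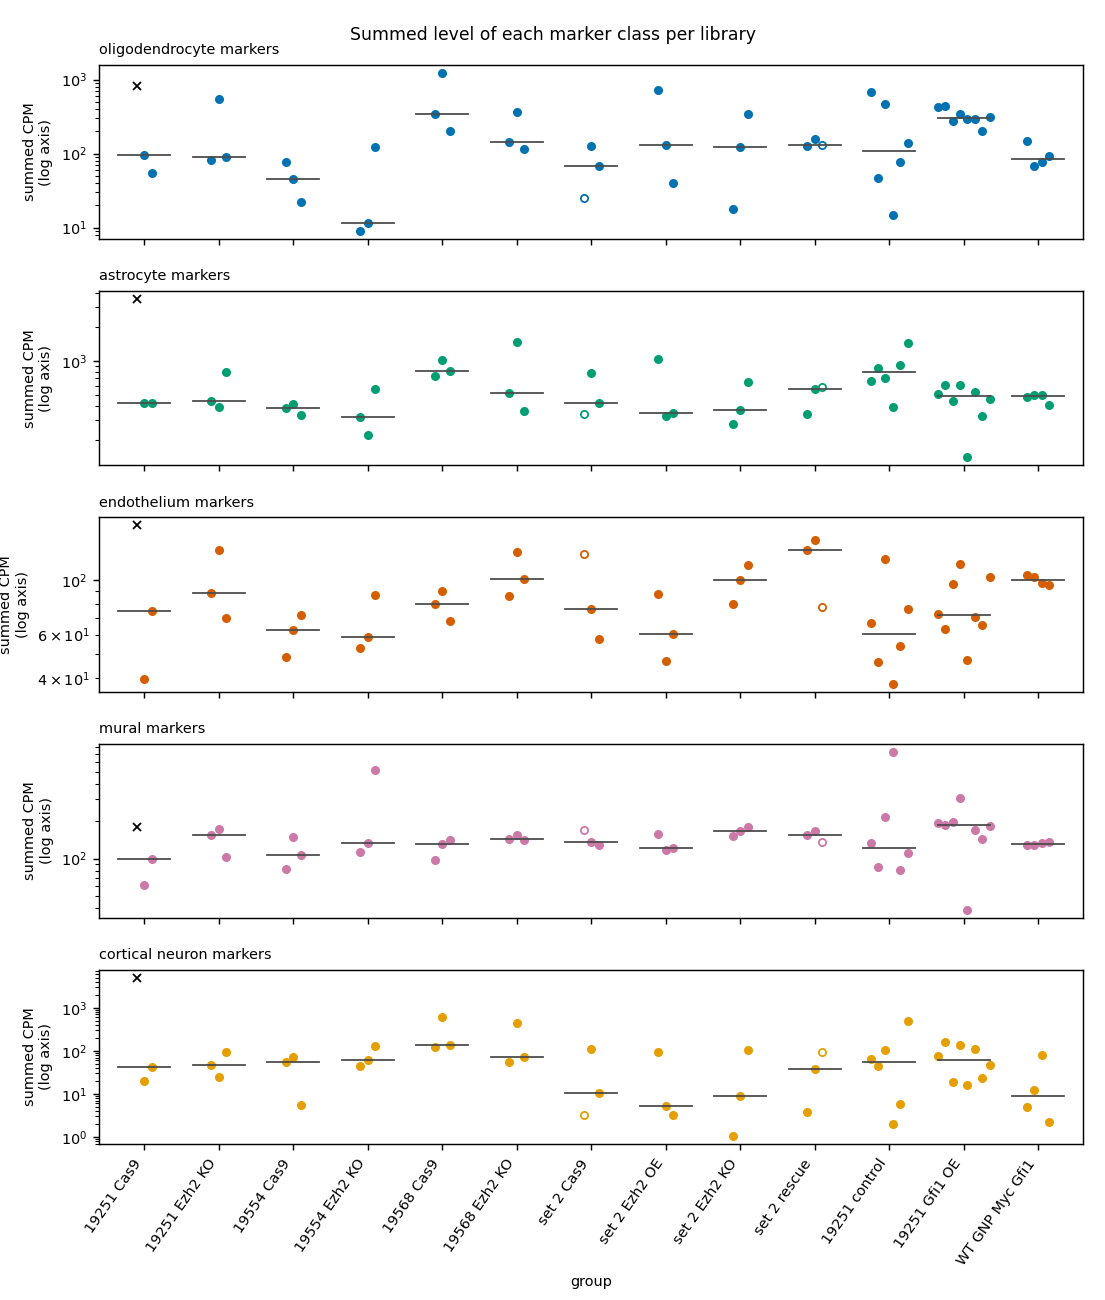
Summed CPM of each marker class (log axis, 1 panel per class) in the 48 libraries by group. Points are libraries, grey lines are group medians, the cross is Cas9 replicate 1 of line 19251 and open circles are the 2 set 2 libraries with contradicting numbers; the spread within groups is wide for oligodendrocyte and cortical neuron markers and narrow for endothelium.

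The 4 myelin genes Mbp, Mag, Mobp and Mog mostly shared their top libraries, though not their proportions. Mbp encodes the myelin basic protein that compacts the sheath. Its level was 456, 48.9 and 28.2 CPM in Cas9 replicates 1 to 3 of line 19251, 56.5, 35.2 and 5.17 CPM in those of line 19554 and 183, 620.3 and 91.3 CPM in those of line 19568. In the libraries labelled Ezh2 KO it was 42.9, 331 and 46.6 CPM in line 19251, 3.29, 3.0 and 64 CPM in line 19554 and 71, 156 and 50 CPM in line 19568. In every one of these lines the Cas9 and Ezh2 KO libraries overlapped, and single libraries stood far above their group.

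Set 2 gave the same picture for Mbp, with 51.4 and 25.8 CPM in Cas9 replicates 2 and 3, 2.52, 56.4 and 169 CPM in Ezh2 KO, 340.4, 72.1 and 12.4 CPM in Ezh2 OE and 68.2 and 74.5 CPM in rescue replicates 1 and 2. Only the 2 rescue libraries lay close together. The control libraries of line 19251 spanned 1.87 to 327 CPM, with a median of 54.1, and the Gfi1 OE libraries spanned 42.9 to 156 CPM, with a median of 86.4. The control range therefore enclosed the whole Gfi1 OE range.

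Mag, an adhesion molecule at the inner face of myelin, and Mobp, a small basic protein of the sheath, had the same top library as the rest of their class in 13 of 13 groups, as did Mbp. Mog, a protein of the outer sheath, did so in 12. These counts set each gene against the mean log2(CPM + 1) of the other members of its class, over 45 libraries in 13 groups, and the median gene at or above 1 CPM matched the oligodendrocyte class in 5 groups. The highest library of the 48, Cas9 replicate 2 of line 19568 in set 1, held 347 CPM of Mobp, 72 CPM of Mag and 18.9 CPM of Mog. Across the 48 libraries the ratio of Mobp to Mbp ran from 0.0181 to 1.25 and that of Mag to Mbp from 0.00181 to 0.166. Control replicate 5 held 38.2 CPM of Mbp beside 0.693 CPM of Mobp and 0.0693 CPM of Mag. Mog was low throughout, with a median of 1.14 CPM, counts of 0 in 3 libraries, and a level at or under the floor of 3 counts in 7.

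Cnp, a phosphodiesterase of non-compact myelin, and Cldn11, the claudin that seals myelin layers, matched their class in 10 groups each. Cldn11 ranged from 0 CPM in the shallow Gfi1 OE replicate 5, where a count of 0 allows up to 1.12 CPM, to 52.5 CPM in Ezh2 OE replicate 1. Cnp stood at 100 CPM or more in 8 of 8 Gfi1 OE libraries and in 5 other libraries. Those 5 were control replicates 1 and 3 (214 and 138 CPM), Ezh2 KO replicate 2 of line 19251 (114 CPM), Cas9 replicate 2 of line 19568 in set 1 (124 CPM) and Ezh2 OE replicate 1 (119.9 CPM).

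The ratio of Cnp to Mbp was 1.31 to 5.53 (median 2.43) over the 8 Gfi1 OE libraries, 0.398 to 5.55 (median 0.814) over the 6 controls and 0.404 to 1.43 for the 4 libraries labelled WT GNP Myc Gfi1. Over the 30 libraries of sets 1 and 2 it ran from 0.0756 to 5.84 (median 0.355) and was above 1 in 7 of them, the highest being Ezh2 KO replicate 1 of set 2, whose Mbp was 2.52 CPM. Among the controls the value of 5.55 came from replicate 4, whose Mbp was 1.87 CPM. Olig1 and Olig2, transcription factors of the oligodendrocyte lineage, stood at 3.64 to 6.70 CPM and 1.28 to 4.36 CPM over the Gfi1 OE libraries.

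The promoters of Cnp and Mog are shown because Cnp was high and Mog was not in the Gfi1 OE libraries. Each line gives the 250 bases before the RefSeq start in the build GRCm38.p6, on the gene's own strand, at chr11:100574689-100574938 (plus strand) for Cnp and chr17:37023399-37023648 (minus strand) for Mog. Capitals mark AATC, the core of the motif bound by Gfi1, read on either strand, so that GATT counts as well.
Cnp: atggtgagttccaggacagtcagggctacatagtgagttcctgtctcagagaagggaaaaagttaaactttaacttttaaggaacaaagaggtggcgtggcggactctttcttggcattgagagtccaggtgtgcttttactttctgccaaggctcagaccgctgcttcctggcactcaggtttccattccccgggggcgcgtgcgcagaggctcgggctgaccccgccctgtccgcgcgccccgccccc
Mog: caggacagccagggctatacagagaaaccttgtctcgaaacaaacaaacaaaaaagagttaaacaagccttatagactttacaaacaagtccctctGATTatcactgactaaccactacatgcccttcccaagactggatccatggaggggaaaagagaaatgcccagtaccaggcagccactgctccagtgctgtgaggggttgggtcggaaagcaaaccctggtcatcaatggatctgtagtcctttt
Cnp held 0 matches and Mog 1, whereas 69% of 32851 promoters of this length held at least 1, with a median of 1. The match is a description of these letters only.

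Among the astrocyte genes, Gfap and Aqp4 varied within groups and S100b varied between them. Gfap, the intermediate filament of reactive astrocytes, was lowest in Ezh2 KO replicate 1 of set 2, at 0.605 CPM, while the other 2 libraries of that group held 43.8 and 137 CPM. Aqp4, the water channel of astrocyte end feet, followed, at 0.127, 13.2 and 45.4 CPM in the same 3 libraries. That library also had the lowest Slc1a2, the main glutamate transporter of astrocytes, at 1.94 CPM, and the lowest Aldh1l1, a folate enzyme, at 0.350 CPM. Its Gja1, by contrast, was 129.8 CPM against 126 and 137 CPM in the other 2.

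Gja1, the gap junction protein connexin 43, was the steadiest of the astrocyte genes. It stood at 54.4 to 199.7 CPM in 47 libraries and at 13.8 CPM in Gfi1 OE replicate 5. Its top library matched that of the class in 5 of 13 groups, the same as the median gene.

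S100b, a calcium-binding protein of astrocytes that some other neural cells share, separated the tumor lines. In set 1 line 19568 held 66.8, 127 and 65.8 CPM in Cas9 and 72.2, 90.9 and 61.5 CPM in Ezh2 KO. The same line in set 2 held 59.6 and 45.3 CPM in Cas9 replicates 2 and 3, 69.2, 71.1 and 68.5 CPM in Ezh2 KO, 69.9, 55 and 44.1 CPM in Ezh2 OE and 90 and 104 CPM in rescue replicates 1 and 2. Line 19554 held 2.44, 1.98 and 8.59 CPM in Cas9 and 0.975, 1.5 and 4.37 CPM in Ezh2 KO. No library of line 19554 reached the lowest library of line 19568.

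Line 19251 was low in S100b as well, with 2.57, 6.67 and 6.85 CPM in Ezh2 KO and 1.97 and 1.44 CPM in Cas9 replicates 2 and 3. Its Cas9 replicate 1 was the exception at 83 CPM. The libraries labelled WT GNP Myc Gfi1 held the highest group of values, 132, 129.6, 149.8 and 134 CPM. Over the 45 libraries without the 3 set aside above, 94.0% of the variance of S100b lay between groups, against 54.6% for the median of 15124 genes and 39.0% for the median of the 33 markers. Gfap, Aqp4 and Slc1a2 had 44.2%, 37.4% and 30.3%.

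**Figure D2:**
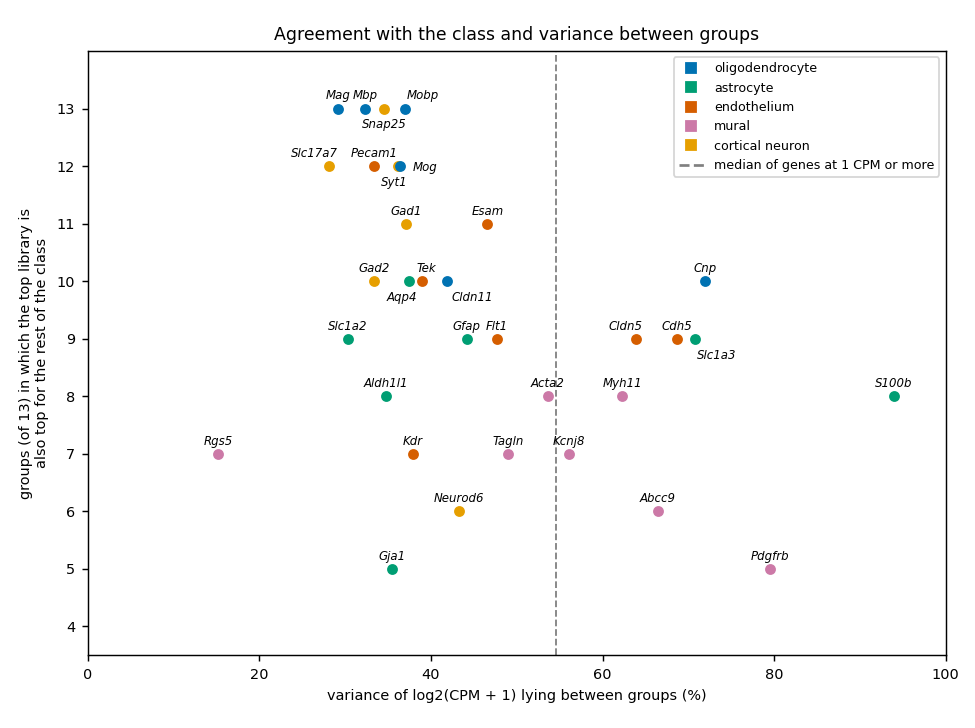
For each of the 33 genes, the share of variance of log2(CPM + 1) lying between groups (%) against the number of the 13 groups in which its top library was also top for the rest of its class. Points are genes, colored by class, and the dashed line is the median share of genes at or above 1 CPM; Mbp and Snap25 sit at 13 groups, and S100b at 94.0% of variance between groups.

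Every library held endothelial RNA. Pecam1, the junction protein PECAM-1, stood at 5.58 to 29.0 CPM over the 48 libraries and had the same top library as its class in 12 of 13 groups. Esam, another adhesion molecule of endothelial junctions, matched in 11 groups and Tek, the angiopoietin receptor, in 10. The VEGF receptors matched less often, Flt1 in 9 groups and Kdr in 7, where the median gene matched in 5.

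Cdh5, the cadherin of endothelial junctions, and Cldn5, the claudin of the blood-brain barrier, had more of their variance between groups, at 68.6% and 63.9%. Cldn5 was low in line 19554, with 2.84, 5.97 and 2.85 CPM in Cas9 and 1.16, 2.11 and 2.73 CPM in Ezh2 KO. It was 9.5, 11.8 and 8.36 CPM in set 1 Cas9 of line 19568, but the set 2 libraries of that line ran from 1.98 to 11.2 CPM and so overlapped line 19554. Pecam1 in the same Ezh2 KO libraries of line 19554 was 8.29, 14.5 and 20.5 CPM, inside the range of the other groups.

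Of the contractile mural genes, Acta2 and Tagln shared their 2 highest libraries, and Myh11 was second highest in one of them. Acta2, smooth muscle actin, reached 624 CPM in control replicate 4 of line 19251 and 319.9 CPM in Ezh2 KO replicate 3 of line 19554, over a median of 8.29 CPM. Tagln, the actin-binding protein transgelin, stood at 52.6 and 33.8 CPM in those 2 libraries. Myh11, smooth muscle myosin, stood at 5.4 and 18.9 CPM there and was highest in Ezh2 KO replicate 1 of set 2, at 20.9 CPM. Control replicate 4 was at the same time the lowest library for endothelium, so Acta2 and Tagln did not go with endothelial genes there.

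The pericyte genes were spread otherwise. Pdgfrb, the PDGF receptor of pericytes, had 79.5% of its variance between groups and matched its class in 5. In line 19568 it stood at 37.4, 44.7 and 66.5 CPM in set 1 Cas9 and 60.7 and 57 CPM in set 2 Cas9 replicates 2 and 3, against 24.8, 9.94 and 14.6 CPM in Cas9 of line 19251 and 9.42, 27 and 26.1 CPM in Cas9 of line 19554. No Cas9 library of the other lines reached those of line 19568. Ezh2 KO held 81.3, 71.8 and 91.2 CPM in line 19568 of set 1 and 83.1, 73.2 and 76.4 CPM in set 2. It held 35.3, 46.8 and 86.7 CPM in line 19554, which reached the range of line 19568, and 26.8, 27.7 and 24.5 CPM in line 19251. Against the Cas9 libraries given here, Ezh2 KO overlapped only in line 19251, though Pdgfrb was not called between these arms in the main fits. Rgs5, a regulator of G-protein signalling in pericytes, had 15.2% of its variance between groups, the lowest share of the 33 genes.

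Snap25 and Syt1, which drive release of transmitter at the synapse, and Slc17a7, which loads glutamate into vesicles, had the same top library as their class in 13, 12 and 12 of 13 groups. Gad1 and Gad2, the enzymes that make GABA, did so in 11 and 10. Cas9 replicate 1 of line 19251 stood far above the rest, with 1110.3 CPM of Snap25, 1829.9 CPM of Gad1 and 1291 CPM of Gad2. Replicates 2 and 3 of that group held 9.7 and 26.5 CPM of Snap25 and 0.891 and 1.84 CPM of Gad1. The same library held 39.5 CPM of Slc17a7 and 0.492 CPM of Neurod6, a transcription factor of cortical excitatory neurons.

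Genes of 3 other brain regions were looked up after these values were seen. Cas9 replicate 1 of line 19251 held 1503 CPM of Penk, 616 CPM of Ppp1r1b and 286 CPM of Drd1a, genes known for striatal neurons. The 7 striatal genes summed to 3358 CPM there, 118 to 334 CPM in the Gfi1 OE libraries, where Ppp1r1b alone reached 332 CPM, and 4.18 to 41.3 CPM in the others. Control replicate 6, the second highest for Gad1 at 165 CPM, held 80.3 CPM of Dlx1 and 56.7 CPM of Th, genes known for interneurons of the olfactory bulb. Cas9 replicate 2 of line 19568 in set 1 held 262 CPM of Snap25, 0 counts of Neurod6 and 48.7 CPM of Slc17a6, a glutamate transporter known for the thalamus. Slc17a6 did not single that library out, standing at 139.7 CPM in control replicate 2 and 66.8 CPM in Ezh2 KO replicate 3 of line 19251. The libraries richest in neuronal RNA thus differed in which neuronal genes they held.

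Neurod6 matched its class in only 6 groups. It was at or above 10 CPM in 5 libraries, namely Ezh2 KO replicates 1 and 2 of line 19554 (21 and 33.9 CPM), Ezh2 KO replicates 1 and 3 of line 19251 (22.4 and 16.3 CPM) and Cas9 replicate 2 of line 19554 (14 CPM). Snap25 in those 5 was 15.7 and 15.5, 18.6 and 42.9 and 37.4 CPM, against a median of 19.0 CPM over the 48 libraries. Neurod1, a related factor of granule neurons, stood at 167 and 224, 241 and 141 and 239 CPM in the same libraries. It was 0.380 CPM in Cas9 replicate 2 of line 19568 in set 1, where Snap25 was 262 CPM. The part of granule neuron genes in the Neurod6 level was not tested.

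**Figure D3:**
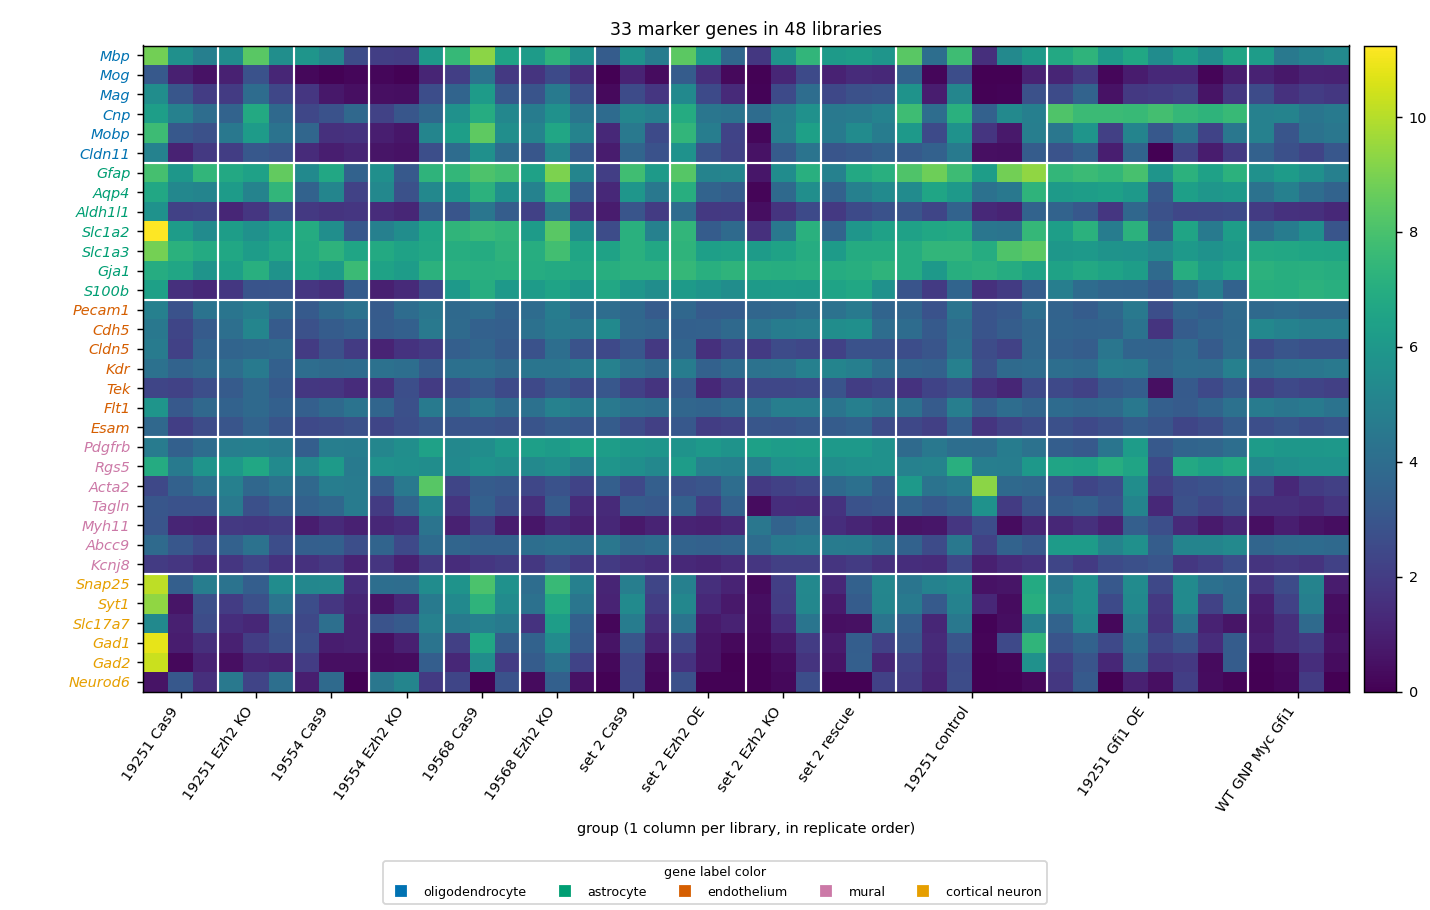
Heat map of log2(CPM + 1) for the 33 genes (rows, gene labels colored by class) in the 48 libraries (columns by group, in replicate order). In the myelin and neuronal rows single columns stand out, among them Cas9 replicate 1 of line 19251 and Cas9 replicate 2 of line 19568 in set 1, while S100b changes in blocks of whole groups.

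The loss of Ezh2 was compared with Cas9 in set 1 to ask whether the knockout alters the tumors. None of the 33 markers was called at an adjusted p under 0.05 by edgeR's quasi-likelihood test with a term for line, where 0.413% of all 16461 tested genes were called. At an unadjusted p under 0.05 there was 1 marker, and DESeq2 and limma-voom also called 0. The median log2 change of the markers was -0.25 against -0.06 over all genes. By class the medians were -1.30 for cortical neurons, -0.56 for astrocytes, -0.55 for oligodendrocytes, 0.11 for endothelium and 0.35 for mural cells. Those of cortical neurons, oligodendrocytes and all markers changed sign without Cas9 replicate 1 of line 19251, to 0.50, 0.19 and 0.34. Those of astrocytes, endothelium and mural cells were then -0.020, 0.37 and 0.57. Pdgfrb was then called higher in Ezh2 KO (log2 change 1.07, edgeR adjusted p = 0.0311), 1 of 33 markers beside 1.29% of all genes, and 3 markers had an unadjusted p under 0.05. Without Ezh2 KO replicate 3 of line 19554 the median of mural cells was -0.060, and those of cortical neurons and oligodendrocytes were -2.11 and -1.32.

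Within single lines the count was again 0 of 33 in edgeR. The background share of called genes was 0.259% in line 19251, 0.481% in line 19554 and 0.027% in line 19568, and 10, 3 and 0 markers had an unadjusted p under 0.05. DESeq2 called Slc1a3 in line 19251 (log2 change -1.69, adjusted p = 0.0288) and 0 markers in the other lines, and limma-voom called 0 in each. The Slc1a3 call rested on Cas9 replicate 1, which held 481 CPM, against 146 and 117 CPM in Cas9 replicates 2 and 3 and 103, 73.8 and 105 CPM in Ezh2 KO. Without that library its log2 change was -0.55 (DESeq2 adjusted p = 0.395), and in edgeR 5 markers of line 19251 in place of 10 had an unadjusted p under 0.05. In that line the mean log2(CPM + 1) in Ezh2 KO minus that in Cas9 was -1.27, -0.57 and -0.068 for the cortical neuron, astrocyte and oligodendrocyte classes with it and 0.67, 0.35 and 0.99 without it.

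In line 19568 the same replicate numbers were taken as pairs between the arms, a choice made from these data and given by no label. With the replicate block 0 markers and 0 of all genes were called there by edgeR, with 0 markers at an unadjusted p under 0.05. The summed oligodendrocyte markers were lower in Ezh2 KO in 3 of 3 pairs, at 340.2, 1231 and 199 CPM in Cas9 and 144, 369 and 117 CPM in Ezh2 KO. The summed cortical neuron markers were lower in 3 of 3 as well, at 126, 596 and 134 CPM in Cas9 and 54.1, 452 and 71.7 CPM in Ezh2 KO. Endothelial and mural sums were higher in 3 of 3. On the mean log2(CPM + 1) pair 2 went the other way for cortical neurons, with 5.41 in Cas9 and 5.64 in Ezh2 KO. Pair 3 did so for mural cells, with 3.40 in Cas9 and 3.13 in Ezh2 KO. Exact two-sided sign-flip tests of the mean log2(CPM + 1) gave p = 0.25 for oligodendrocytes and endothelium, 0.5 for astrocytes and cortical neurons and 1 for mural cells, and 3 pairs cannot give less than 0.25.

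The knockout effect was also tested for a difference among the 3 lines, which gave 0 called markers in edgeR, DESeq2 and limma-voom (0.0162% of all genes in edgeR), with 4 at an unadjusted p under 0.05 and 2 without Cas9 replicate 1 of line 19251.

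Between lines without a knockout, Pdgfrb was the only marker called, higher in Cas9 of line 19568 at 49.5 ± 15.1 (SD, n = 3) CPM than in lines 19251 and 19554 at 18.7 ± 8.25 (SD, n = 6) CPM (log2 change 1.37, SE 0.37, adjusted p = 0.0489, edgeR). That is 1 of 33 where 4.25% of all genes were called, and the call held under only 7 of 25 other settings. Leaving out Cas9 replicate 1 of line 19251 gave 9 called markers, 27.3% beside 14.7% of all genes, all higher in line 19568 and led by S100b (log2 change 5.01, edgeR adjusted p = 7.97e-05). The other 8 were Pdgfrb, the myelin genes Cldn11, Cnp, Mag, Mobp and Mog, and the neuronal genes Gad1 and Syt1.

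In set 2, 3 of 33 markers were called between Ezh2 KO and Cas9, a share of 9.09% beside 9.11% of all 17663 genes. Myh11 stood at 20.9, 11 and 15.1 CPM in Ezh2 KO replicates 1 to 3 and at 0.708 and 1.17 CPM in Cas9 replicates 2 and 3. The groups did not overlap, and Myh11 rose (log2 change 3.91, SE 0.42, adjusted p = 0.00141, edgeR). Ezh2 OE held 1.15, 1.02 and 1.48 CPM and the rescue 1.78 and 1.25 CPM, both near the Cas9 level. In line 19568 of set 1, however, Ezh2 KO held 0.613, 1.45 and 1.01 CPM, and Cas9 held 1.06, 3.1 and 0.789 CPM.

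Cdh5 stood at 19.1, 25.4 and 27.1 CPM in set 2 Ezh2 KO and 12.8 and 11.8 CPM in Cas9 and rose (log2 change 0.86, SE 0.19, adjusted p = 0.0246, edgeR). Tagln stood at 0.287, 1.76 and 1.66 CPM in Ezh2 KO and 8.75 and 7.7 CPM in Cas9 and fell (log2 change -2.85, SE 0.73, adjusted p = 0.0431, edgeR). The groups did not overlap in either gene. Cdh5 in line 19568 of set 1 was 17.1, 23.5 and 22 CPM in Ezh2 KO against 13.7, 10.4 and 9.63 CPM in Cas9. These did not overlap either, though Cdh5 was not called there. Tagln there was 1.84, 8.39 and 1.61 CPM in Ezh2 KO against 2.3, 9.84 and 5.79 CPM in Cas9, with overlap. Myh11 and Tagln, both contractile, therefore changed in opposite directions in set 2. Acta2 was 2.77, 3.56 and 4.31 CPM in set 2 Ezh2 KO and 4.63 and 9.66 CPM in Cas9 and was not called. The Myh11 call held under all 17 other settings and the Tagln call under 8. The call of Cdh5 was lost without any of Cas9 replicate 2, Cas9 replicate 3 (which leaves 1 Cas9 library, assumed to vary like the other groups), Ezh2 KO replicate 2 or Ezh2 KO replicate 3 (edgeR adjusted p = 0.145, 0.198, 0.0856 and 0.0731). With the 2 contradicting libraries kept under their titles, the log2 change of Cdh5 was 0.10 (edgeR adjusted p = 0.952). That run counts as Cas9 the library with 5128 CPM of Ezh2.

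The rescue was compared with Ezh2 KO to see what returned when Ezh2 was put back, and shares its Ezh2 KO libraries with the comparison above. It called 2 of 33 markers, where 1.21% of all genes were called. Myh11 fell from 15.7 ± 4.95 (SD, n = 3) to 1.52 ± 0.377 (SD, n = 2) CPM (log2 change -3.32, SE 0.40, adjusted p = 0.00969, edgeR). Cdh5 stood at 44.7 and 48.3 CPM in rescue replicates 1 and 2 and so rose further (log2 change 1.03, SE 0.18, adjusted p = 0.0321, edgeR). The library titled Cas9 replicate 1, which held 5128 CPM of Ezh2, had 39.7 CPM of Cdh5, and the library titled rescue replicate 3 had 15.1 CPM. Without rescue replicate 1 or 2 a single rescue library is left, assumed to vary like the other groups, and neither gene was called. The log2 change was then -3.59 and -3.09 for Myh11 (edgeR adjusted p = 0.0662 and 0.121) and 1.09 and 0.96 for Cdh5 (edgeR adjusted p = 0.13 and 0.229). Ezh2 OE against Cas9 called 0 markers in edgeR, DESeq2 and limma-voom, with 0 at an unadjusted p under 0.05 (0.00566% of all genes called).

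**Figure D4:**
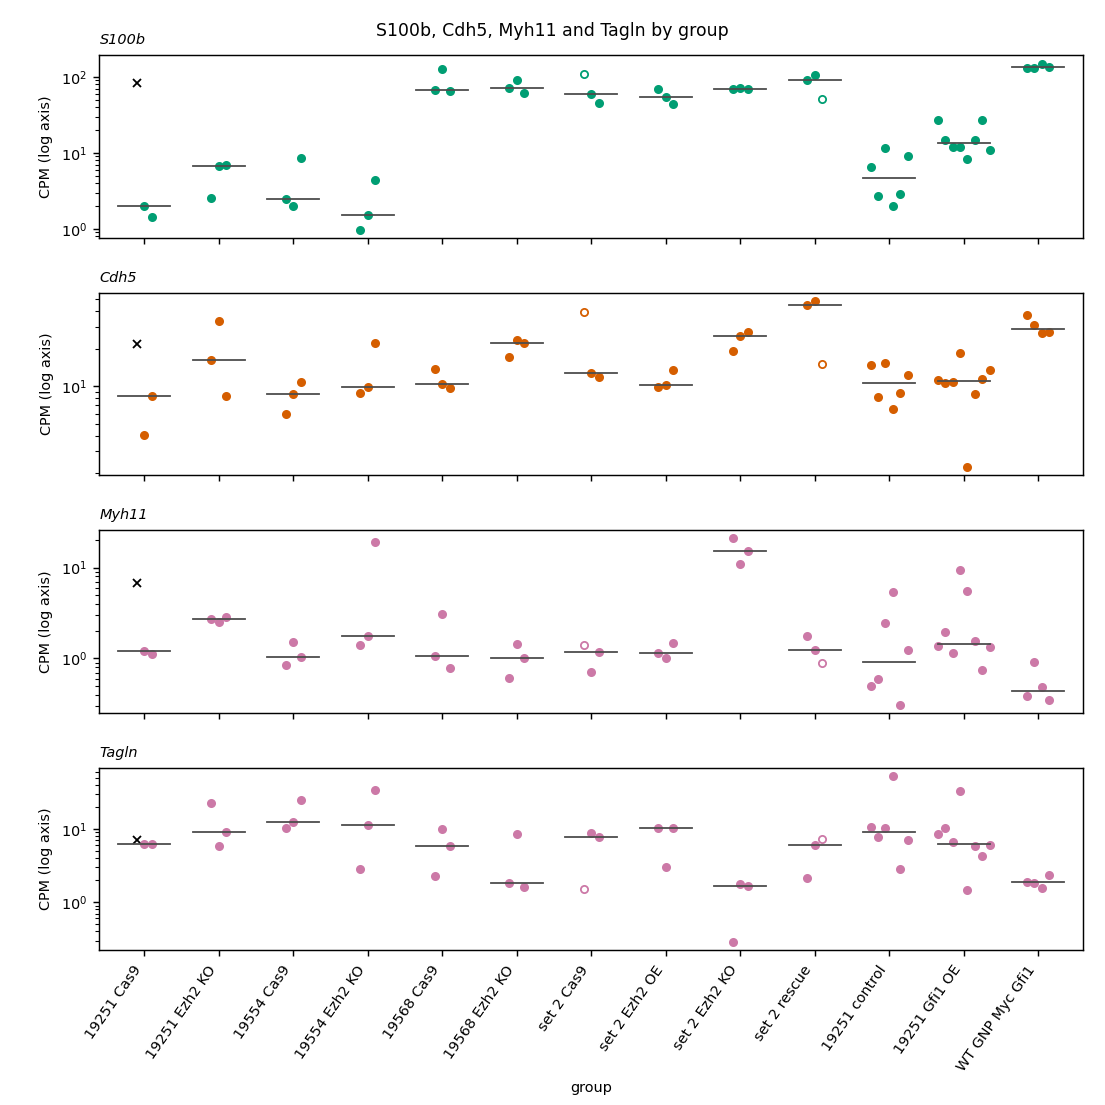
CPM (log axis) of S100b, Cdh5, Myh11 and Tagln in the 48 libraries by group, with group medians as grey lines, Cas9 replicate 1 of line 19251 as a cross and the 2 set 2 libraries with contradicting numbers as open circles. S100b is high in every group of line 19568 and in WT GNP, and Myh11 is high in the 3 Ezh2 KO libraries of set 2 but not in those of line 19568 in set 1.

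Gfi1 OE was compared with control within line 19251. Of the 33 markers 6 were called, 18.2% beside 24.6% of all 17024 genes, 3 of them higher (11.1% of all genes were) and 3 lower (13.5%). None belonged to the oligodendrocyte, endothelial or cortical neuron classes. Those higher were Abcc9, Kcnj8 and S100b, and those lower were Slc1a3, Acta2 and Gfap.

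Slc1a3, the glutamate transporter GLAST of astrocytes and neural progenitors, spanned 122 to 341 CPM, with a median of 167, in control and 38.3 to 65 CPM, with a median of 57.5, in Gfi1 OE. All 8 Gfi1 OE libraries lay below all 6 controls (log2 change -1.71, SE 0.21, adjusted p = 4.95e-05, edgeR). S100b spanned 1.98 to 11.4 CPM, with a median of 4.65, in control and 8.19 to 27.2 CPM, with a median of 13.4, in Gfi1 OE, with 6 of 8 libraries above all controls, and rose (log2 change 1.63, SE 0.40, adjusted p = 0.00773, edgeR). Gfap fell from 353 ± 208 (SD, n = 6) to 154 ± 60.9 (SD, n = 8) CPM with overlapping groups, since only 1 Gfi1 OE library lay below all controls (log2 change -1.09, SE 0.37, adjusted p = 0.0412, edgeR), and the call held under 7 of 19 other settings. Aqp4, Aldh1l1, Slc1a2 and Gja1 were not called. The astrocyte genes therefore did not share a direction.

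Abcc9 and Kcnj8 encode the sulfonylurea receptor SUR2 and the channel Kir6.1, the partner subunits of the potassium channel of pericytes and smooth muscle that ATP closes. Abcc9 spanned 3.59 to 21.8 CPM, with a median of 9.2, in control and 8.93 to 71.6 CPM, with a median of 35.6, in Gfi1 OE, where 7 of 8 libraries lay above all controls. The lowest of the 8 was the shallow replicate 5. Abcc9 rose (log2 change 2.19, SE 0.42, adjusted p = 0.00159, edgeR), and so did Kcnj8, from 2.08 ± 1.15 (SD, n = 6) to 4.43 ± 1.49 (SD, n = 8) CPM (log2 change 1.25, SE 0.35, adjusted p = 0.0166, edgeR), with 4 of 8 libraries above all controls. Both calls held under all 19 other settings.

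Pdgfrb and Rgs5, the other pericyte markers, were not called. Pdgfrb spanned 13.9 to 25.4 CPM, with a median of 17, in control and 7.81 to 73.4 CPM, with a median of 11.8, in Gfi1 OE, the highest value being replicate 4. Rgs5 spanned 26.6 to 137 CPM, with a median of 30.3, in control and 4.84 to 128 CPM, with a median of 93.2, in Gfi1 OE. All Gfi1 OE libraries other than the shallow replicate 5 lay above 5 of 6 controls in Rgs5, and it was called when control replicate 3, the highest control, was left out. Acta2 spanned 12.1 to 624 CPM, with a median of 20.8, in control and 3.35 to 44.3 CPM, with a median of 5.83, in Gfi1 OE, with 7 of 8 libraries below all controls (log2 change -3.61, SE 0.97, adjusted p = 0.0133, edgeR). Without control replicate 4 its log2 change was -1.31 and the call was lost (edgeR adjusted p = 0.142).

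The promoters of Abcc9 and Kcnj8 are shown because the genes rose together in Gfi1 OE. Both lie on chromosome 6 on the minus strand, the 250 bases before the RefSeq start being chr6:142702275-142702524 for Abcc9 and chr6:142571615-142571864 for Kcnj8 in GRCm38.p6. Capitals again mark AATC or its complement GATT.
Abcc9: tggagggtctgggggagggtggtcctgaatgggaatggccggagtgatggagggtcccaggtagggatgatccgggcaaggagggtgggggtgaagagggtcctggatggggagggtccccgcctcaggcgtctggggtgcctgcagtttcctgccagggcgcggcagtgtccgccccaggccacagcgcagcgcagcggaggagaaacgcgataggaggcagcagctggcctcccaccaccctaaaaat
Kcnj8: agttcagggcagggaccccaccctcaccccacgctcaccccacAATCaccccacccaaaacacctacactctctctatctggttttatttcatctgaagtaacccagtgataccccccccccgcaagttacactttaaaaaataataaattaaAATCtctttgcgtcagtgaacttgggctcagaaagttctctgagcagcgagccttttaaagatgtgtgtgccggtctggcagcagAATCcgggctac
Abcc9 held 0 matches and Kcnj8 held 3, beside the median of 1 over all promoters.

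Cnp had the widest gap between means among the oligodendrocyte genes, with 205 ± 38.2 (SD, n = 8) CPM in Gfi1 OE and 73.9 ± 83.3 (SD, n = 6) CPM in control. It was not called (log2 change 1.63, SE 0.57, adjusted p = 0.0512, edgeR), as control replicates 1 and 3 lay at 214 and 138 CPM and only 2 Gfi1 OE libraries lay above all controls. DESeq2 and limma-voom gave adjusted p = 0.00921 and 0.0049, and without control replicate 3 edgeR gave 0.0454. Mbp, Mag and Mobp in those 2 controls were also high, at 327 and 212, 54 and 35.2 and 67.6 and 52.4 CPM. In Gfi1 OE Mag spanned 0.463 to 11 CPM, with a median of 2.82, so that there Cnp was high without Mag.

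**Figure D5:**
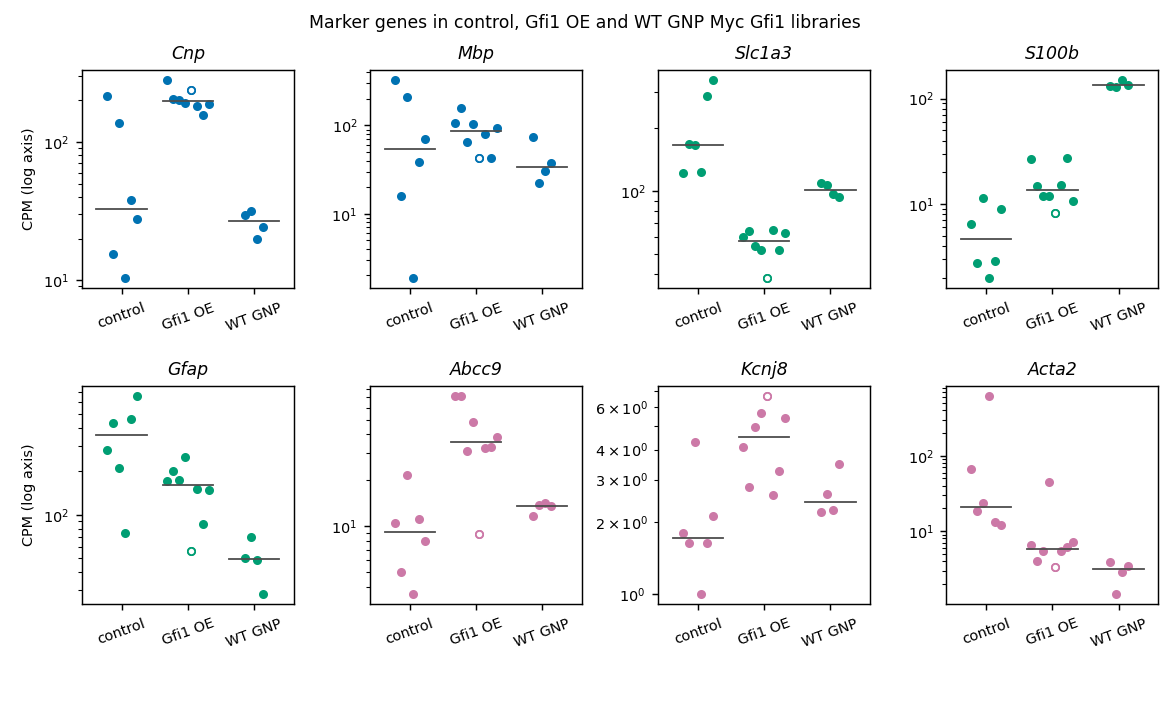
CPM (log axis) of Cnp, Mbp, Slc1a3, S100b, Gfap, Abcc9, Kcnj8 and Acta2 in the 6 control, 8 Gfi1 OE and 4 WT GNP Myc Gfi1 libraries, 1 panel per gene. Points are libraries and the open circle is Gfi1 OE replicate 5; Slc1a3 is lower in all 8 Gfi1 OE libraries than in the controls, and Cnp is uniformly high in Gfi1 OE while Mbp is not.

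The libraries labelled WT GNP Myc Gfi1 differ from Gfi1 OE in cell of origin, genotype, title prefix and the level of Gfi1 itself (given above) at once, which cannot be told apart, and the comparison shares the Gfi1 OE libraries with the one above. It called 17 of 33 markers, 51.5% beside 48.7% of all 17278 genes, with 5 higher (21.9% of all genes were) and 12 lower (26.8%). S100b stood at 136 ± 9.11 (SD, n = 4) CPM against 15.8 ± 7.23 (SD, n = 8) CPM (log2 change 3.05, SE 0.27, adjusted p = 1.70e-06, edgeR). Cnp stood at 26.4 ± 5.32 (SD, n = 4) CPM against 205 ± 38.2 (SD, n = 8) CPM (log2 change -3.03, SE 0.23, adjusted p = 7.18e-07, edgeR). In both genes all 4 libraries lay outside the whole Gfi1 OE range.

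Also higher in these 4 libraries were Slc1a3, Cdh5, Flt1 and Pdgfrb. Cdh5 stood at 37.4, 30.8, 26.9 and 27 CPM and rose against Gfi1 OE (log2 change 1.44, SE 0.26, adjusted p = 0.000627, edgeR), and Pdgfrb stood at 70.5, 61.2, 61 and 62.4 CPM (log2 change 1.69, SE 0.50, adjusted p = 0.0129, edgeR). Those lower were Mbp beside Cnp, the astrocyte genes Gfap, Aqp4 and Aldh1l1, the mural genes Abcc9, Acta2, Tagln and Myh11, the endothelial gene Cldn5, and Gad1 and Gad2. Cdh5 and Cldn5, both of endothelial junctions, thus changed in opposite directions. The 4 libraries lay close together for Slc1a3, at 109, 107, 96.6 and 94 CPM, and for Pecam1, at 13.3, 14.6, 12.9 and 13.1 CPM, which was not called.

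Over the 11 comparisons, as fitted by edgeR on all their libraries, 18 of the 33 markers (54.5%) were called at least once and 15 never, beside 57.3% called at least once of 15879 genes tested in all 11. All 33 had passed the low-count filter in each of the 11. Those never called included Snap25, Syt1, Slc17a7, Pecam1, Mag, Mobp, Mog and Slc1a2, of which Mag, Mobp, Mog and Syt1 were called between lines without Cas9 replicate 1 of line 19251. These 8 had 28.1% to 37.0% of their variance between groups, and all 15 had 15.2% (Rgs5) to 46.6% (Esam). The share and the calls draw on the same values, so neither is support for the other.

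A second list of 60 other markers of the same 5 classes was read beside the first. It called 0 genes in the set 1 knockout comparisons and in Ezh2 OE against Cas9 by edgeR. Between the lines it called 2 of 60 (3.33% beside 4.25% of all genes), both higher in line 19568. They were Cspg4 (log2 change 3.89), a proteoglycan of pericytes and oligodendrocyte precursors, and Sox9 (2.88), a transcription factor of astrocytes. In set 2 Ezh2 KO it called 4 of 59 (6.78% beside 9.11% of all genes). Notch3 (1.30), Mylk (1.23) and Vip (2.33) were higher and Cnn1 (-2.59), the smooth muscle protein calponin, was lower. In the rescue against Ezh2 KO it called 2 of 59 (3.39% beside 1.21% of all genes), both higher in the rescue. They were Mylk (1.37), the kinase of myosin light chain, and Myl9 (1.97), a myosin light chain.

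In Gfi1 OE against control, the second list called 6 of 57 higher and 11 lower, 29.8% in either direction beside 24.6% of all genes. The largest changes were Vip (6.42), a peptide of interneurons, and Atp13a5 (3.61), a transporter found in brain pericytes, upward, and Pvalb (-4.55), a calcium buffer of interneurons, and Gjc3 (-4.02), a connexin of oligodendrocytes, downward. For the libraries labelled WT GNP Myc Gfi1 it called 10 of 55 higher and 17 lower, 49.1% in either direction beside 48.7% of all genes. Atp13a5 (-5.74), the astrocyte genes Ntsr2 (-4.45) and Acsbg1 (-4.09), and Cspg4 (3.91) had the largest changes.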

How the data were processed

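RNA of 48 libraries was measured by stranded paired-end sequencing of total RNA, per the labels' protocols. The authors deposited raw read counts per gene symbol, with 5 closing lines per file for reads outside any gene (19.6% to 42.6%), ambiguous (0.438% to 2.26%) or unaligned (2.7% to 71.6%), which were kept out of totals and tests. The submitters' processing notes name CASAVA 1.7, STAR, BWA, HTSeq, limma, R 3.2.3 and mm9; the annotation and the strand setting of the counter are not given in the sources used here. Reads carry no molecular identifiers, so floors of 3 counts cover counting error only.

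CPM was computed from the deposited counts over the total on genes, and class levels as summed CPM and as the mean log2(CPM + 1). The only tests of class levels were the sign-flip tests over the pairs of line 19568 in set 1, which were not planned. Comparisons were fitted over all genes with edgeR 4.0.16 in R 4.3.3 (TMM scaling, filterByExpr, quasi-likelihood F-test, Benjamini-Hochberg adjustment over every gene tested, 0.05), and log2 changes with SE come from these fits. Means and SDs are of CPM. Set 1 was fitted with a term for line or with 6 group means, set 2 with 4 group means without the 2 libraries of contradicting numbers, and the other comparisons with 2 groups each. Every Gfi1 OE title gives 8 as its replicate, and the 8 libraries were numbered 1 to 8 by accession. The same replicate numbers of line 19568 in set 1 deviated together from their group means, with correlations of 0.172, 0.399 and 0.139, and were taken as pairs. No label gives this pairing, which was chosen from these data. Those of line 19554 were also positive, at 0.0872, 0.063 and 0.254, and were not taken as pairs. The fits were tested on simulated data.

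The members and lists were chosen with earlier results of these data known. Any of the 33 genes could be named, and of the second list the 4 called genes with the largest absolute log2 change per comparison. The lists for striatum, olfactory bulb and thalamus were chosen after values were seen. Over 1128 pairs of libraries 0 were identical. Promoters came from RefSeq in GRCm38.p6, not the build of the counts, where 24 of the 33 genes matched. Alternatives were RLE factors, no low-count filter, a minimum mean of 1 CPM, DESeq2 1.42.0, limma-voom (limma 3.58.1), a replicate block, single lines alone, the contradicting libraries kept, and each library left out. Tables and figures used Python 3.11.15, numpy 2.4.6, pandas 2.3.3 and matplotlib 3.10.9.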

Additional observations from a re-analysis of the deposited data

Results flagged for a closer look

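A library was singled out where its gap to the nearest other library of its group, as a share of the group's range, passed Dixon's 95% value. Of 114 groups tested 16 did so, and chance gives about 1 in 20. Several flags come from the same library and are not independent, so that rate is only a rough guide. All 16 lay in Gfi1 OE or in those labelled WT GNP Myc Gfi1. The groups of 3 libraries, among them Cas9 of line 19251, are not covered. The values are on the log2(CPM + 1) scale.

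Gfi1 OE replicate 5, the library of 2687641 counts, stood below the other 7 of its group in 8 cases. Its mean astrocyte level was 3.93, with the others at 5.15 to 5.86. It held 3.14 for Aqp4, 5.30 for Slc1a3, 3.88 for Gja1, 1.69 for Cdh5, 0.46 for Tek, 2.55 for Rgs5 and 3.31 for Abcc9. The part of depth and of the unaligned share of 71.6% in these values was not tested.

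Gfi1 OE replicate 4 stood above its group in mural markers, with a mean mural level of 5.02, Pdgfrb at 6.22 and Acta2 at 5.50. Pdgfrb in that library was 73.4 CPM, whereas the other 7 held at most 19.4 CPM.

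Among the 4 libraries labelled WT GNP Myc Gfi1, replicate 1 was high in Pdgfrb (6.16), replicate 2 was high in the mean endothelial level (3.72) and low in Mog (0.72), replicate 3 was high in Neurod6 (1.90) and replicate 4 was high in the mean mural level (3.15).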

How the results depend on the processing

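No called member reversed its direction under any alternative run. The median class levels over the 48 libraries moved by less than the spread of libraries within groups under the pseudocount of 0.1, TMM-scaled CPM and the median over members. They also did so, chosen after seeing the data, without Cas9 replicate 1 of line 19251 or without the 2 libraries with contradicting numbers. A median over 48 libraries can hardly move when 1 or 2 are left out, so those runs do not show that group results hold. The class medians of the set 1 knockout did change sign: without Cas9 replicate 1 of line 19251 they were 0.19 for oligodendrocytes, 0.50 for cortical neurons and 0.34 for all markers (0.20, 0.52 and 0.34 with DESeq2), and over all libraries left out in turn they ran from -1.32 to 0.19, -2.11 to 0.50 and -0.49 to 0.34, and from -0.060 to 0.57 for mural cells, the lowest each without Ezh2 KO replicate 3 of line 19554. Of single called members, 140 values kept their side of the threshold and 17 lost it under settings other than leaving out a library, and 296 kept it and 60 lost it when a library was left out. RLE factors moved the median log2 change of all genes to at most -0.11, in the comparison between lines.

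Without the low-count filter, edgeR called 15 markers in set 2 Ezh2 KO, 6 in Ezh2 OE and 13 in the rescue, in place of 3, 0 and 2, beside 9.56%, 0.467% and 5.63% of all genes. Those shares include the low-count genes that the filter drops, whereas every marker had passed the filter. The marker counts and these shares are therefore not like for like. DESeq2 called 1 marker in line 19251, 3 between lines and 4 in the rescue, and limma-voom 3 between lines. DESeq2 without Cas9 replicate 1 of line 19251, chosen after seeing the data, called 2 in set 1, 1 in line 19554, 0 in line 19251 and 14 between lines. Shares of all genes called are not given for these DESeq2 and limma-voom runs, so their counts do not set the markers apart. With RLE factors, a minimum mean of 1 CPM or the replicate block, 0 were called between lines. With the contradicting libraries kept, 1 was called in set 2 Ezh2 KO and 1 in the rescue. Shares of all genes called are not given for that run either, so its counts do not set the markers apart. The cause of these changes in count was not tested.

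Leaving out each library in turn gave 0 to 1 called markers in set 1, 0 to 0 in lines 19251, 19554 and 19568, in their difference and in Ezh2 OE, 0 to 9 between lines, 1 to 3 in set 2 Ezh2 KO, 0 to 3 in the rescue, 5 to 11 in Gfi1 OE and 13 to 21 for those labelled WT GNP Myc Gfi1. The 9 came without Cas9 replicate 1 of line 19251, and the 11 without control replicate 3. Shares of all genes called are not given for each of these runs, so the ranges do not set the markers apart. The lowest count in set 2 Ezh2 KO, 1, came without Cas9 replicate 2 or 3 or Ezh2 KO replicate 2 or 3, and the 0 of the rescue without rescue replicate 1 or 2. The rescue gave 1 without Cas9 replicate 2 or 3 or any Ezh2 KO replicate.

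Outside line 19568 of set 1, correlations between same-numbered libraries ran from -0.587 to 0.423, and no other libraries were taken as pairs. With the replicate block, 2 markers were called in set 2 Ezh2 KO, as Tagln was lost (log2 change -2.72, edgeR adjusted p = 0.0953), 3 in the rescue, and 0 in set 1, in each line and in Ezh2 OE. Shares of all genes called are not given for the set 2 fits with the block, so their counts do not set the markers apart. Sets of 2 or 3 libraries and the depth of Gfi1 OE replicate 5 limit what can be called, and Mog, Gad2 and Neurod6 were at or under the floor of 3 counts in 7, 5 and 17 libraries.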
